A study of Mus musculus with 4 samples.

Results

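IL-17 type γδT cells were examined among ChAT-eGFP+ cells that had been sorted from the stromal vascular fraction (SVF) of inguinal white adipose tissue (IWAT) and profiled by 3′ scRNAseq. ChAT is choline acetyltransferase, the enzyme that makes acetylcholine, and in ChATBAC-eGFP mice a bacterial artificial chromosome drives eGFP from the regulatory sequence of Chat. The sort therefore selected cells by the reporter and not by the Chat transcript. All donors were male ChATBAC-eGFP mice, 5 weeks old at the start, that lived at thermoneutrality (30 °C) for 3 weeks. One arm then stayed at 30 °C for 4 h. The other was acclimated at room temperature for a day and then spent 4 h at 4 °C. Only the cold arm had that day at room temperature, so its effect is not separated from that of the 4 h at 4 °C. Each of the 4 libraries, 2 per temperature, was made from cells of 4 pooled mice, so the n of every test below is 2 libraries against 2, and differences between the mice of a pool could not be seen.

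A cell was counted as an IL-17 type γδT cell by its raw UMIs (unique molecular identifiers, each standing for a captured transcript). It had to carry at least 1 UMI of Trdc, the constant part of the δ chain, at least 1 of Tcrg-C1 or Tcrg-C2, constant parts of the γ chain, and at least 2 over Cd3e, Cd3d and Cd3g, the signalling subunits of the T cell receptor. It also had to carry at least 1 UMI of Cd163l1, Il17a, Il23r or Trdv4, and none of Cd79a (B cells), C1qa (macrophages), Foxp3 (regulatory T cells) or Top2a (dividing cells). Of 21249 cells with 201 to 4999 detected genes and under 7.5% mitochondrial UMIs, 278 met the rule. At 30 °C, 86 of 5190 cells met it in replicate 1 and 102 of 5388 in replicate 2, and at 4 °C 70 of 5326 did in replicate 1 and 20 of 5345 in replicate 2.

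γδT cells rearrange a γ and a δ chain in place of the α and β chains of conventional T cells, and an innate-like subset of them leaves the fetal thymus already committed to interleukin 17. That program rests on transcription factors that include SOX13, MAF and PLZF (Zbtb16), and on the kinase BLK. Such cells settle in barrier tissues, lung, gonads and fat, and are triggered by IL-23 and IL-1 as well as by their receptor. In adipose tissue they are known as a source of IL-17A and of TNF, and have been tied to stromal IL-33, to regulatory T cell numbers and to sympathetic innervation and thermogenesis.

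The subset of such a cell is read from its V segments. The 3 that the rule or the results turn on are shown here by the last 120 coding bases of the second exon, the end of the segment that meets the joining region (GENCODE annotation of GRCm38, forward strand). Tcrg-V6 lies at chr13:19190810-19190929 and Tcrg-V4 beside it at chr13:19185387-19185506 for the stretches printed, and Trdv4, the δ segment that innate-like Tcrg-V6 cells use, at chr14:54075396-54075515. The last line is the Il17a promoter, the 250 bases before the transcription start (RefSeq, GRCm38.p6, chr1:20730655-20730904, forward strand), printed because Il17a is a marker of these cells whose level is examined across temperatures.
Tcrg-V6: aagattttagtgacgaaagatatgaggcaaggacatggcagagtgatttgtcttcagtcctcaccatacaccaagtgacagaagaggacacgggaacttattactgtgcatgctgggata
Tcrg-V4: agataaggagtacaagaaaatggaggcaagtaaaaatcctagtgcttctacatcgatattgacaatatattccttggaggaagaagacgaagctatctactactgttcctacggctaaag
Trdv4: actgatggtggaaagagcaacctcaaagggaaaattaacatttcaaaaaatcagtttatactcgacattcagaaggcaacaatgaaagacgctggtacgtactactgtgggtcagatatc
Il17a promoter: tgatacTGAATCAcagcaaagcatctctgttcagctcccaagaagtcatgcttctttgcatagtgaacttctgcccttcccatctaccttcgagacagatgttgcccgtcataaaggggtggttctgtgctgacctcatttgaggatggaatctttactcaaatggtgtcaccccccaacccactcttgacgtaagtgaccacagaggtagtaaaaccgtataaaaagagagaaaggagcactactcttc
Over their whole coding parts, of 364, 419 and 345 bases in the order shown, Tcrg-V6 and Tcrg-V4 were identical at 54.4% of 428 aligned columns. Tcrg-V6 and Trdv4 were identical at 50.8%, and Tcrg-V4 and Trdv4 at 51.2%, so a read within one is not readily taken for another. The capitals in the promoter mark an AP-1 site (searched as TGANTCA on both strands), whose first base lies 244 bases before the start. Of 32851 promoters of the same length, 6.75% held the AP-1 letters, and among the genes looked up Klf9, which fell in cold, held them as well. The match describes the letters only.

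Most members lay well inside the rule. The median member carried 12 Trdc UMIs, 12 Tcrg-C UMIs, 26 Cd3 UMIs and 11 UMIs over the 4 IL-17 type markers. At the edge, 30 members carried exactly 1 marker UMI, 13 exactly 1 Trdc UMI, 4 exactly 1 Tcrg-C UMI and 1 exactly 2 Cd3 UMIs. Just outside, 170 cells met every other part of the rule but carried a Top2a UMI, and 40 were set aside for Cd79a, 10 for C1qa and 10 for Foxp3. A further 66 γδT cells without any of these exclusions carried none of the 4 markers. Cd163l1, a scavenger receptor (SCART1) of γδT cells, was the most frequent marker, detected in 79.9% of members. Trdv4 was detected in 56.8%, Il23r, the IL-23 receptor, in 39.9%, and Il17a in 38.1%. A single marker carried 82 members, while 102 carried 2, 65 carried 3 and 29 all 4. The most frequent combination was Cd163l1 with Trdv4 alone, in 65 members.

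The label was checked against genes the rule did not use. Sox13 was detected in 58.3% of members, Zbtb16 in 30.9%, Blk in 91.0% and Trgv2, another γ segment, in 57.9%. In the 66 γδT cells without a marker the shares were 47.0%, 4.55%, 72.7% and 65.2%. Trgv2 therefore did not set the members apart from other γδT cells, and Zbtb16 differed most. Levels are given as CPM, UMIs scaled to counts per 1e6 of a library's summed member UMIs, averaged over the 4 libraries; 3′ UMI counts do not grow with transcript length, so they can be set side by side between genes. Sox13 stood at 119 CPM against 0.330 in αβT cells. These were 2440 cells with at least 2 Cd3 UMIs, Trac and Trbc UMIs and none of Trdc, Cd163l1, Il17a, Il23r, Trdv4 or the excluded genes. Tcrg-C1 gave a UMI in 2.91% of them. Blk stood at 518 CPM against 5.96, but B cells, which also use this kinase, reached 134 CPM. These contrasts describe cells that were picked by related genes and carry no test.

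Marker genes of other cell types were found in the members at differing levels, and the source of these UMIs was not tested. The 6 B cell markers summed to 254, 258, 256 and 255 CPM in the libraries (30 °C replicates 1 and 2, then 4 °C replicates 1 and 2, the order used throughout), against a mean of 8462 in the remaining cells, with Cd79a at 0 by the rule. The most abundant was Cd79b, at 135 CPM, with a UMI in 55.0% of members and in 10.6% of αβT cells. Igkc, an immunoglobulin light chain, gave a UMI in 90.3% of members and in 88.9% of αβT cells. Plasma cell markers summed to 578, 562, 308 and 658 CPM (mean 35099 in the remaining cells), and dendritic ones to 365, 395, 543 and 442 CPM (mean 2860). Macrophage markers summed to 134, 38.5, 26.8 and 34.0 CPM, with C1qa at 0 by the rule. NK markers summed to 116 CPM in the first library and to 2.40, 0 and 0 in the others, with Ncr1 and Eomes at 0 in all; the most abundant, Gzma, had 81 UMIs in 3 members. Markers of group 2 innate lymphoid cells (ILC2s) summed to 79.0, 69.7, 101 and 136 CPM (mean 112 in the remaining cells), with Il5 at 0. Those of regulatory T cells summed to 186, 174, 234 and 272 CPM (mean 497), with Foxp3 at 0 by the rule. Markers of αβT cells were higher, at 1447, 1881, 2363 and 1922 CPM (mean 1416), led by Trbc2 at 1179 CPM. Trac, the α constant chain, gave a UMI in 46.0% of members and in 5.61% of B cells, while Cd4 did in 2.52% and Cd8a in 0.360%. Whether αβ transcripts in γδT cells come from unrearranged loci, free RNA or mixed droplets was not tested. Without the members that had a Trac UMI, the difference in share described below was -0.533 in place of -0.931 percentage points. Fewer cells were then counted in every library, and the ratio of the cold to the thermoneutral mean share was 0.453 in place of 0.476. In the same cells 75 genes in place of 112 were called for temperature, 57 of them in both.

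The libraries were of like depth per member. Summed member UMIs came to 709103, 832022, 633489 and 176338, and the median UMIs per member to 7981, 7283, 8304 and 8720. Replicate 2 at 4 °C, with 20 members, is thus the shallowest sum, and UMI counts are printed for some genes that rest on few. Between 5 and 14 barcodes of kept cells were shared by any pair of libraries, none of them with a member, and 1 member was marked as a doublet.

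The genes that set IL-17 type γδT cells apart most from all other kept cells, beyond those the rule used, were again of the γδ17 program or of less familiar function. Trgv2 led, at 206 CPM in members, followed by Sox13 (119 CPM). Lingo4, a membrane protein with leucine-rich repeats, stood at 79.0 CPM, Pde5a, a cyclic GMP phosphodiesterase, at 66.5 CPM, and AC163354.1 at 101 CPM. Cryba4, a lens crystallin gene, stood at 158 CPM, Nxnl2 at 106 CPM, and Abi3bp, an extracellular matrix protein gene, at 198 CPM against 0.739 CPM in αβT cells. Il17re, a subunit of the IL-17C receptor, stood at 77.5 CPM, Tns4 at 58.9 CPM, and the potassium channel gene Kcnk1 at 124 CPM. 5830411N06Rik, a scavenger receptor gene (SCART2) beside Cd163l1 on chromosome 7, stood at 342 CPM and ranged from 138 to 450 CPM over the libraries. Il1r1, the IL-1 receptor, stood at 88.8 CPM. Stmn2, a microtubule regulator best known in neurons, averaged 108 CPM but ranged from 36.3 to 243.9 CPM, and only 14.4% of members had a UMI of it. Against αβT cells the highest ratios belonged to Sox13, Abi3bp, Cryba4 and Tns4. The 66 γδT cells without a UMI of the 4 markers shared many of these levels, with Sox13 at 109 CPM, Abi3bp at 173 CPM and 5830411N06Rik at 605 CPM.

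Listed transcription factors of the lineage ranged widely in level. Id2 stood at 867 CPM against 344 in αβT cells, and Maf at 757 against 655. Hif1a was lower than in αβT cells, at 91.2 against 316 CPM, as were Batf (56.7 against 115) and Stat3 (58.7 against 92.6). Irf4 stood at 50.1 CPM and Ahr at 25.6 CPM. Among receptors, Il7r, the IL-7 receptor, reached 1105 CPM, Cxcr6, which guides T cells into tissue, 1013 CPM, Ccr2 592 CPM, Il18r1 441 CPM and Ccr6 150 CPM. S100a4, a calcium binding protein of effector cells, stood at 6527 CPM against 1272 in αβT cells. Genes of T cell receptor signalling and costimulation were uneven. Cd28, the main costimulatory receptor, stood at 7.89 CPM against 381 in αβT cells, Lck, a proximal kinase, at 20.6 against 374, Cd27 at 17.7 against 284, and Cd5 at 21.3 against 220. The adaptor Lat stood at 552 against 538 CPM and the kinase Zap70 at 154 against 161, while Cd247, the ζ chain of the receptor, stood at 416 against 182 and Tnfrsf25, the receptor for TL1A, at 194 against 30.5. Adrb1, an adrenergic receptor, stood at 10.2 CPM against 1.07 CPM in αβT cells.

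**Figure D1:**
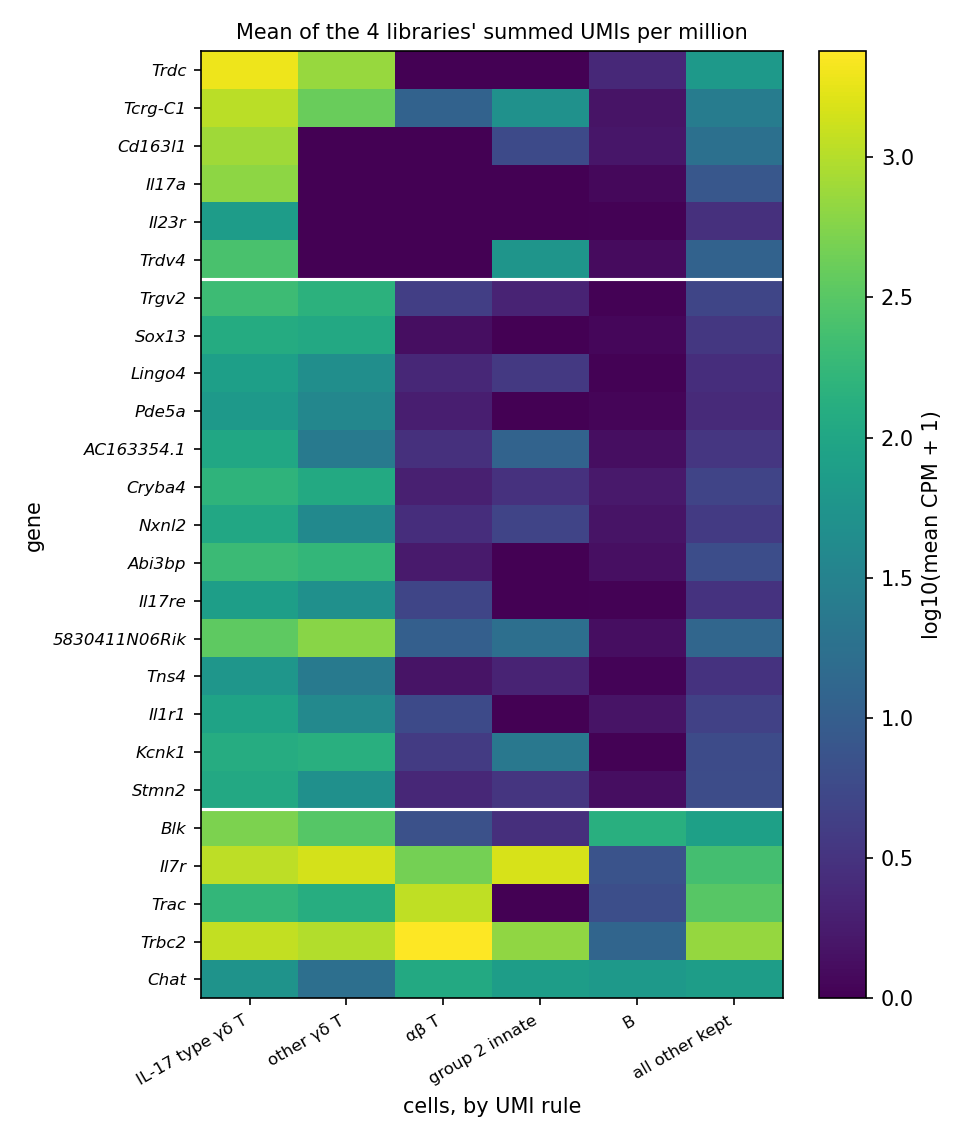
Mean level (colour, log10 of mean CPM + 1 over 4 libraries) of each gene (rows) in IL-17 type γδT cells and in the cell types they were set beside (columns). The top block holds genes of the rule, whose dark cells are 0 by the choice of cells. Below it, Sox13 and Blk stood at 119 and 518 CPM in the members against 0.330 and 5.96 in αβT cells, while Trac stood at 173 against 1145 CPM.

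Cytokine transcripts differed in their spread over cells. Ltb, which encodes lymphotoxin β, was detected in 98.9% of members, Tnf in 60.4%, Tgfb1 in 57.2% and Tnfsf14 (LIGHT) in 33.1%. The 1369 Il17a UMIs of the members lay in 106 cells, and the 10 richest held 48.6% of them; one cell carried 132, whereas the median positive cell carried 4. Il17f, the close relative of Il17a, had 76 UMIs in 22 cells, of which 17 (77.3%) also had an Il17a UMI, against 89 of the 256 members without Il17f (34.8%). Csf2, which encodes GM-CSF, had 84 UMIs in 44 cells, and Areg, the tissue repair factor amphiregulin, 52 in 12. By contrast the marker Cd163l1 spread its 1855 UMIs over 222 cells. Ifng stood at 3.89 CPM and Il22 at 0.653 CPM.

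Chat itself was detected in 30.6% of members, although all had been sorted on its reporter. The share was 39.3% in αβT cells, 35.8% in B cells and 38.5% in ILC2s, and 18.2% in the γδT cells without an IL-17 type marker. Summed Chat UMIs were 32, 44, 39 and 9, or 45.1, 52.9, 61.6 and 51.0 CPM. The highest and the lowest library thus belonged to different temperatures and the groups overlapped (edgeR log2 difference 0.20, SE 0.271, adjusted p = 0.82). An Il17a UMI was found in 39 of 85 members with a Chat UMI (45.9%) and in 67 of 193 without (34.7%).

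V segments divided the members. A Tcrg-V6 UMI was found in 78 members (28.1%) and a Tcrg-V4 UMI in 37 (13.3%). Since 3′ reads need not reach a V segment, a cell without such a UMI is not a cell without the chain. Trdv4 was found in 69 of the 78 Tcrg-V6 cells (88.5%), in 12 of the 37 Tcrg-V4 cells (32.4%), and in 84 of 171 cells with neither (49.1%). A V segment UMI also does not show a rearranged chain, as transcripts of unrearranged segments count alike: Trdv4 gave a UMI in 34 of 117 ILC2s (29.1%), cells that by their rule lacked Trdc.

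Members with a Tcrg-V6 or Trdv4 UMI and no Tcrg-V4 UMI (154 cells, namely 48, 70, 26 and 10 by library) differed in level from the 24 with Tcrg-V4 alone (4, 4, 11 and 5 by library). The values are pooled over libraries and, since the V4 cells are few and unevenly spread over temperatures, are given as a description. Zbtb16, which encodes PLZF, was detected in 42.2% of the first class and in 8.33% of the second. Il17f ran the other way, in 3.25% against 25.0%, where 3 of the 6 positive cells of the second class were among the 4 from 30 °C replicate 1 and where Il17a, with which Il17f occurred, could itself admit a cell. The chemokine receptor gene Ccr6 was found in 57.1% against 87.5% and Chat in 26.0% against 58.3%. Trdc stood at 2682 CPM in the first class and 769 CPM in the second, Tcrg-C1 at 1354 and 706 CPM, and Tcrg-C2 at 370 and 687 CPM. Blk was alike in both, at 93.5% and 91.7%, as was Maf, at 96.1% and 100%. The rule bears on these values: the 24 cells lack Trdv4 and could be members only through Cd163l1, Il17a or Il23r, which many of the 154 did not need, and 13 further γδT cells with a Tcrg-V4 UMI were not members for want of a marker. Cd163l1 was found in 96.1% and 41.7%.

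**Figure D2:**
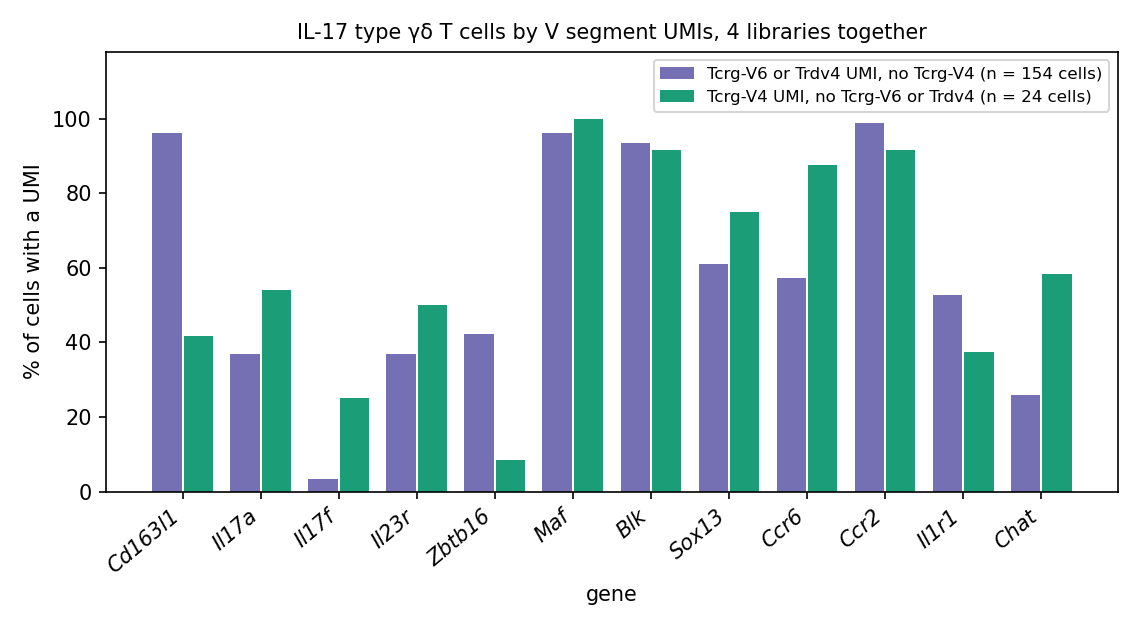
Share of cells with a UMI of each gene among members with Tcrg-V6 or Trdv4 and no Tcrg-V4 (n = 154 cells) and members with Tcrg-V4 alone (n = 24 cells), 4 libraries pooled. Cd163l1, Il17a and Il23r are genes of the rule. Bars show Zbtb16 more frequent in the first class (42.2% against 8.33%) and Il17f and Ccr6 more frequent in the second.

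The first question of the design was whether acute cold changed the share of IL-17 type γδT cells among ChAT-eGFP+ cells. Members made up 1.66% (95% interval 1.33 to 2.04) and 1.89% (1.55 to 2.29) of kept cells at thermoneutrality and 1.31% (1.03 to 1.66) and 0.374% (0.229 to 0.577) in acute cold, by exact Clopper-Pearson limits that cover counting error only. Both cold libraries were below both thermoneutral ones. The means were 1.78% ± 0.167 and 0.844% ± 0.665 (SD, n = 2), a difference of -0.931 percentage points with a two-sided exact permutation p of 0.333, the smallest that 2 against 2 can give. The lower cold mean came largely from replicate 2, without which the difference was -0.461 points. Of cells with at least 2 Cd3 UMIs, members made up 3.95% ± 0.403 and 1.83% ± 1.36 (SD, n = 2). All γδT cells, with or without an IL-17 type marker, stood at 2.08%, 2.45%, 1.52% and 0.430% of kept cells and ILC2s at 0.559%, 0.798%, 0.507% and 0.337%, both also without overlap, while αβT cells stood higher in cold, at 9.52%, 11.2%, 12.9% and 12.3% (exact permutation p = 0.333 for each). Within all γδT cells the members' share was 79.6%, 77.3%, 86.4% and 87.0% (78.5% ± 1.67 and 86.7% ± 0.380, SD, n = 2). The markers of the rule, Il17a among them, decide this share, so it is given as a description. With Il17a left out of the markers, 78 of 108, 101 of 132, 62 of 81 and 18 of 23 γδT cells were members. Of all kept cells and of cells with Cd3 UMIs, the lower cold mean was found with every setting tried, and thinning each cell to 4302 UMIs gave means of 2.26% and 0.906%.

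Dividing cells, which the rule leaves out, lay lower in share as well. Among cells that met the rest of the rule, 74 of 160 (46.3%) and 72 of 174 (41.4%) carried a Top2a UMI at 30 °C and 14 of 84 (16.7%) and 10 of 30 (33.3%) at 4 °C (means 43.8% and 25.0%, exact permutation p = 0.333, the smallest possible; looked at after the values were seen). In αβT cells the shares were 21.3%, 19.1%, 22.5% and 21.5%. When Top2a was not required to be absent, the cells made up 3.08%, 3.23%, 1.58% and 0.561% of kept cells.

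**Figure D3:**
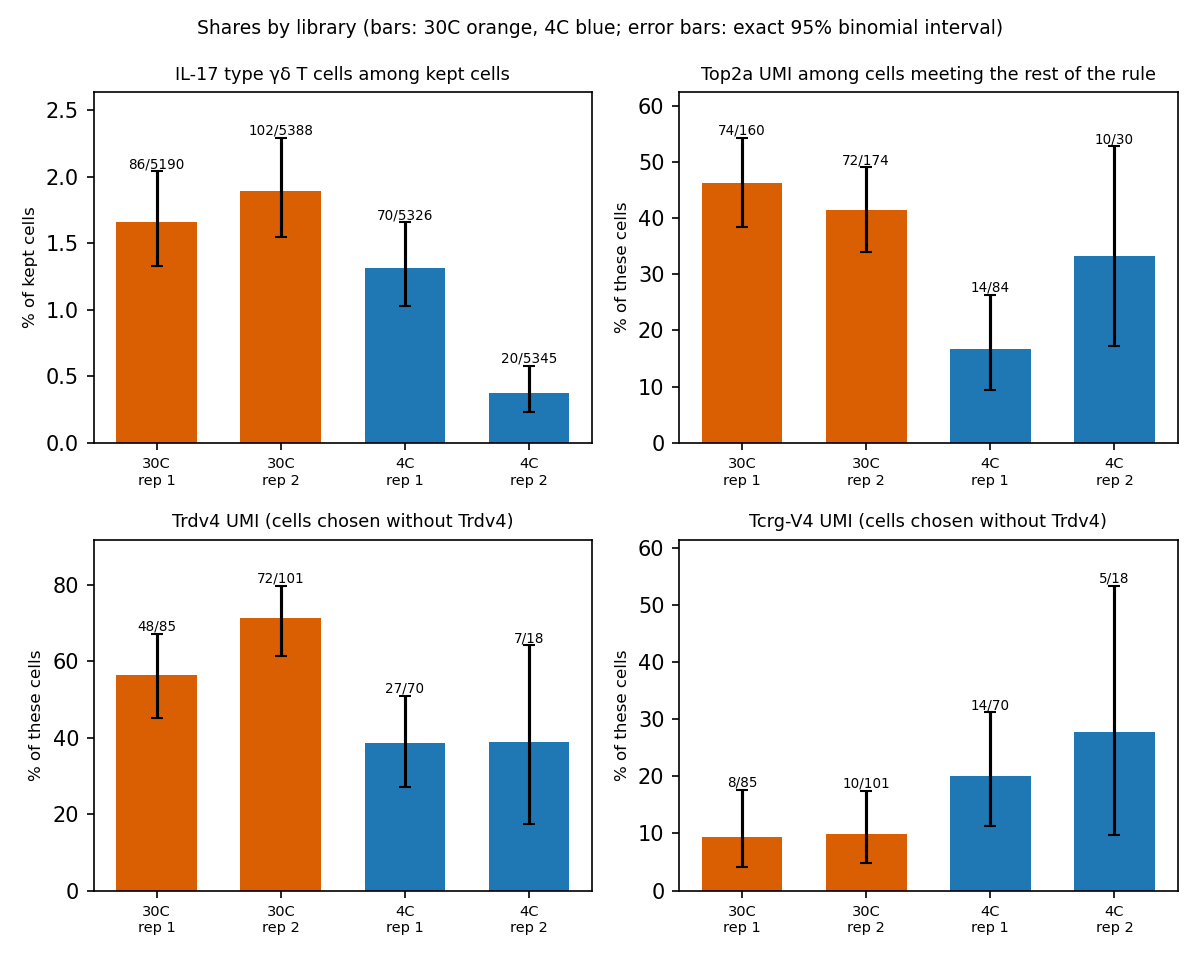
Shares in percent by library (bars, 30 °C orange and 4 °C blue; counts above) with exact 95% binomial intervals, for members among kept cells, Top2a among cells meeting the rest of the rule, and Trdv4 and Tcrg-V4 among members chosen without Trdv4. The members' share is lowest in 4 °C replicate 2 (0.374%) and both cold libraries sit below both thermoneutral ones.

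The makeup of the members by V segment was compared in cells chosen without Trdv4, so that the marker could be read. A Trdv4 UMI was found in 56.5% and 71.3% of them at 30 °C and in 38.6% and 38.9% at 4 °C, with no overlap (63.9% ± 10.5 and 38.7% ± 0.224, SD, n = 2; exact permutation p = 0.333, the smallest possible). Tcrg-V4 went the opposite way, at 9.41%, 9.90%, 20.0% and 27.8%. Thinned to one depth, Tcrg-V4 stood at 3.85%, 7.48%, 11.1% and 8.70%. Tcrg-V6 stood at 29.4%, 30.7%, 24.3% and 27.8%. Because detection of Trdv4 and Tcrg-V4 differed between these libraries, transcript changes below are also given for the 154 cells with Tcrg-V6 or Trdv4 and no Tcrg-V4.

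The second question was which transcripts of these cells differed after cold. edgeR's quasi-likelihood test on the sums per library, with Benjamini-Hochberg adjustment, tested 6286 genes. It called 112 (1.78% of those tested), of which 37 were higher (0.589%) and 75 lower (1.19%) at 4 °C, and the median log2 difference over all genes was -0.01. With library sizes alone in place of TMM, edgeR's scaling for composition, the calls were 38 higher and 47 lower. Of 43 named genes past the threshold that the rule does not use, 14 stayed past it when any 1 of the 4 libraries was left out. Without 4 °C replicate 1, which leaves replicate 2 alone in the cold arm and is taken to vary like the others, 21 of the 43 were called. With Top2a cells let in 30 were called, without the members that had a Trac UMI 25, and in cells with Tcrg-V6 or Trdv4 and no Tcrg-V4 18. Of the rises, Gem, Arl4c, Lmna, Far1, Eloa, Plec, Ddx17, Lta, Cd69, Klf6, Jund and Nfkbid were not called in that last fit. Of the falls, Ddit4, Gimap3, Slc6a13, Cenpa, Dgat1, Gimap6, Rora, Sesn1, Txnip, Rbm3, Rpl39 and Rplp1 were not, and Tnfsf8 was not tested there. Pdcd4, Zfp36l2 and Ifngr1 alone kept the call in each of these fits and in every other alternative run, DESeq2 included. Values in the following paragraphs are CPM in the order of the libraries and log2 differences of 4 °C against 30 °C from that fit, with its adjusted p.

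Of 18 cytokine genes listed, 8 that the rule does not use were abundant enough to test, and 3 passed the threshold, all higher in cold (median of the 8 differences 1.08, against -0.01 over all genes). Each of the 3 lost the call without at least 1 library. Of those that did not pass, Ltb stood at 0.02 and Tgfb1 at 0.25. Tnf, an inflammatory cytokine, stood at 79.0, 181, 302 and 289 CPM (1.10, SE 0.248, adjusted p = 0.0234). Its cold libraries lay together, the thermoneutral ones far apart, and without 30 °C replicate 1 the difference was 0.63 (adjusted p = 0.185). Lta, which encodes lymphotoxin α, stood at 24.0, 24.0, 69.5 and 56.7 CPM (1.40, SE 0.303, adjusted p = 0.0197). It lost the call without 30 °C replicate 2 (adjusted p = 0.0694) and without 4 °C replicate 1 (1.18, adjusted p = 0.421). Tnfsf8, which encodes the CD30 ligand, rested on 5, 2, 19 and 5 UMIs (2.58, SE 0.585, adjusted p = 0.024). It lost the call without 30 °C replicate 2 (1.98, adjusted p = 0.318).

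Il17a stood at 464, 351, 971 and 754 CPM in the members, who were partly chosen for it. In γδT cells taken without asking for any IL-17 type marker it stood at 372, 274, 864 and 677 CPM, both cold libraries above both thermoneutral ones (1.24, SE 0.141, adjusted p = 5.56e-07). With Il17a alone dropped from the rule, the levels were 389, 351, 858 and 375 CPM (0.78, SE 0.201, adjusted p = 0.0365), and 4 °C replicate 2 fell between the thermoneutral libraries. With Il23r dropped as well, that library stood at 178 CPM and the call was lost (0.64, adjusted p = 0.563). In the cells with Tcrg-V6 or Trdv4 and no Tcrg-V4 the levels were 476, 252, 1173 and 238 CPM. Over these choices, 4 °C replicate 1 stood above both thermoneutral libraries each time, while 4 °C replicate 2 did so among all members and with no marker asked for, and not in the others. Cells with an Il17a UMI numbered 27, 35, 37 and 7, or 31.4%, 34.3%, 52.9% and 35.0% of members. By share of cells, 4 °C replicate 2 thus lay near the thermoneutral libraries. Its 133 Il17a UMIs, the same number with no marker asked for, lay in those 7 cells. With Il17a dropped from the rule, 18 of its 20 members and 59 of these UMIs were left. With Il23r dropped as well, 23 UMIs were left.

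The largest rises outside the cytokines included the following genes. Socs1, an inhibitor of cytokine signalling, stood at 69.1, 54.1, 169 and 130 CPM (1.31, SE 0.207, adjusted p = 0.00174, and 0.172 without 4 °C replicate 1). Ptpn7, a phosphatase that acts on MAP kinases, rose by 1.28 (adjusted p = 0.00169, and 0.0783 without that library), and Gem, a small GTPase, by 1.56 (adjusted p = 0.0153), which came to 0.72 without it (adjusted p = 0.7), to 1.14 without 30 °C replicate 1 (adjusted p = 0.0601) and to 2.13 without 30 °C replicate 2. Arl4c, a small GTPase of membrane and cytoskeletal traffic, stood at 50.8, 62.5, 131 and 147 CPM (1.18, SE 0.214, adjusted p = 0.00548). It kept the call without each library, as did the cytoskeletal linker Plec, at 106, 111, 207 and 221 CPM (0.90, adjusted p = 0.00778), and the actin binding gene Tagln2, at 259, 260, 447 and 573 CPM (0.87, adjusted p = 0.00531). The Tagln2 difference was -0.07 when cells with Top2a were let in, and in the Tcrg-V6 or Trdv4 cells Arl4c (0.99, adjusted p = 0.258) and Plec (0.62, adjusted p = 0.359) were not called.

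Further rises past the threshold were seen for Lmna, a lamin of the nuclear envelope (1.14), Far1, which makes fatty alcohols (1.13), the dynein light chain gene Dynll1 (0.97), the elongin subunit gene Eloa (0.96) and the RNA helicase gene Ddx17 (0.90), each losing the call without at least 1 library. Of 27 immediate early genes listed, 23 were tested, 19 of them positive (median 0.51), with 2 called higher and 1 lower. Cd69, an early activation and tissue retention receptor listed with the homing genes, stood at 288, 347, 500 and 533 CPM (0.63, SE 0.15, adjusted p = 0.0304). Without 30 °C replicate 1 its adjusted p was 0.322. Jund, an AP-1 subunit, rose by 0.61 (adjusted p = 0.0106, and 0.0718 and 0.265 without replicate 1 of 30 °C and of 4 °C) and Klf6 by 0.72 (adjusted p = 0.0364, and 0.0817, 0.245 and 0.114 without 30 °C replicates 1 and 2 and 4 °C replicate 1), while of 13 NF-κB subunits and feedback genes only Nfkbid was called (0.86, adjusted p = 0.0219, and 0.218 and 0.491 without replicate 1 of 30 °C and of 4 °C).

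Among the falls, Pdcd4, an inhibitor of translation, stood at 690, 758, 235 and 233 CPM (-1.69, SE 0.147, adjusted p = 2.2e-06). Zfp36l2, which promotes decay of AU-rich transcripts, stood at 776, 810, 294 and 323 CPM (-1.44, SE 0.138, adjusted p = 5.46e-06). In both, the replicates of a temperature lay close together and the temperatures far apart. Ddit4, an inhibitor of mTORC1 (REDD1), stood at 84.6, 112, 30.0 and 22.7 CPM (-1.86, adjusted p = 0.00174), and Irs2, an adaptor of the insulin receptor, at 88.8, 81.7, 31.6 and 5.67 CPM (-1.78, adjusted p = 0.00625). Each of these 4 kept the call without any 1 library, although Irs2 came to -3.91 without 4 °C replicate 1. In the cold libraries Ddit4 rested on 19 and 4 UMIs and Irs2 on 20 and 1. With Top2a cells let in Irs2 stood at -1.01 and was not called (adjusted p = 0.178). In the Tcrg-V6 or Trdv4 cells Ddit4 stood at -1.89 (adjusted p = 0.0587).

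GIMAP proteins are GTPases of immune cells that support lymphocyte survival, and their genes form a cluster on chromosome 6. Gimap5 stood at 155, 157, 45.8 and 34.0 CPM (-1.92, SE 0.223, adjusted p = 6.83e-05) and Gimap3 at 152, 175, 53.7 and 62.4 CPM (-1.62, SE 0.212, adjusted p = 0.000284). Gimap3 was not called in the Tcrg-V6 or Trdv4 cells (-1.18, adjusted p = 0.0604). Gimap6 fell by 1.29 (adjusted p = 0.0189, and 0.0535 and 0.325 without replicate 1 of 30 °C and of 4 °C). The family was then looked at whole, after these values had been seen. Of 7 Gimap genes tested, 4 were called lower (Gimap1 the fourth, -1.08), all 7 were negative and the median was -1.08. Gimap8 and Gimap9, at -0.29 and -0.21, did not pass. In the Tcrg-V6 or Trdv4 cells they stood at 0.36 and 0.10, and Gimap1 (-0.79, adjusted p = 0.163) and Gimap6 (-1.13, adjusted p = 0.256) were not called. Without 30 °C replicate 2, Gimap4 stood at 0.06 and Gimap9 at 0.05.

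Of 14 cytokine receptor genes tested that the rule does not use (median -0.20), 2 were called, both lower. Ifngr1, the ligand binding chain of the interferon γ receptor, stood at 448, 410, 188 and 204 CPM (-1.21, SE 0.161, adjusted p = 0.000303). Il7r stood at 1204, 1526, 805 and 885 CPM (-0.77, SE 0.123, adjusted p = 0.00179). Il7r is the receptor for IL-7, a survival factor of lymphocytes. Both genes kept the call without each library, but with Top2a cells let in Il7r stood at -0.10 and was not called (adjusted p = 0.78). Among those not called, Il1r1 stood at -0.68, Il2ra at -0.50, Il2rb at -0.46, Il2rg at 0.06, Il4ra at 0.38 and Il21r at 0.62. With Il23r counted, 9 of the 15 tested were negative and 6 positive. Il23r, used by the rule, stood at 64.9, 80.5, 67.9 and 73.7 CPM (-0.14). Of the homing receptors Cxcr4 stood at 106, 145, 60.0 and 73.7 CPM (-1.06, adjusted p = 0.0227), with adjusted p = 0.383 without 30 °C replicate 2 and 0.381 without 4 °C replicate 1.

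FOXO factors hold back growth in resting lymphocytes, and glucocorticoids act through a nuclear receptor in the same cells. Of 10 glucocorticoid genes tested, 5 were called lower and none higher (median -0.86). Of 13 FOXO and growth restraint genes 5 were called lower and none higher (median -0.53). Over all genes tested, 1.19% were called lower. Ddit4 stands in both lists, and Cxcr4, given above with the homing receptors, also stands in the glucocorticoid list. Klf9, a target of both the glucocorticoid and the thyroid hormone receptor, stood at 49.4, 84.1, 7.89 and 11.3 CPM (-3.00, SE 0.466, adjusted p = 0.00169). It rested on 35, 70, 5 and 2 UMIs, and its difference ran from -3.3 to -2.5 with each library left out. Tsc22d3, which encodes the glucocorticoid-induced leucine zipper, stood at 247, 181, 101 and 113 CPM (-1.09, adjusted p = 0.00697, and 0.102 without 4 °C replicate 1). Fkbp5, a chaperone in the same feedback loop, stood at 128, 124, 69.5 and 62.4 CPM (-0.95, adjusted p = 0.0197; named after its values were seen). Its call was lost without 30 °C replicate 1 (adjusted p = 0.0592), 30 °C replicate 2 (0.075) or 4 °C replicate 1 (0.228).

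Pik3ip1, an inhibitor of PI3 kinase, stood at 67.7, 74.5, 14.2 and 22.7 CPM (-2.19, SE 0.349, adjusted p = 0.00175, and 0.185 without 4 °C replicate 1). The cold libraries held 9 and 4 Pik3ip1 UMIs. Sesn1, a stress-induced restraint on mTORC1, stood at 71.9, 72.1, 23.7 and 28.4 CPM (-1.59, adjusted p = 0.00778). Txnip, which limits glucose uptake, stood at 357, 298, 185 and 193 CPM (-0.86, adjusted p = 0.00927). In all 3 the cold libraries lay below the thermoneutral ones, and Sesn1 and Txnip lost the call without 4 °C replicate 1 (adjusted p = 0.294 and 0.0854). Txnip lost it also without 30 °C replicate 1 (adjusted p = 0.0551), and with Top2a cells let in Txnip stood at -0.33 (adjusted p = 0.258) and Sesn1 also lost the call (adjusted p = 0.0761). Other falls past the threshold were those of the calcium pump gene Atp2b4 (-1.40), the GABA transporter gene Slc6a13 (-1.43) and Dgat1, which catalyses the last step of triglyceride synthesis (-1.41), none of them kept without every library. Without 4 °C replicate 1, Slc6a13 came to -2.83 and Dgat1 to -3.12.

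Genes named for mild cold did not rise. Cirbp, the cold-inducible RNA binding protein gene, stood at 292, 274, 158 and 96.4 CPM (-1.08, SE 0.189, adjusted p = 0.00425), and Rbm3, its relative, at 1526, 1613, 1239 and 1123 CPM (-0.46, SE 0.0996, adjusted p = 0.0197, and 0.171 without 30 °C replicate 2). Both lay lower in each cold library than in either thermoneutral one. Among members without a Trac UMI neither was called, with Cirbp at -0.50 (adjusted p = 0.419) and Rbm3 at -0.39 (adjusted p = 0.117). They were the only calls among 13 cold-inducible and heat shock genes tested, 10 of which were positive (median 0.40). Of 12 circadian genes only Rora, which is also a receptor of the type 17 program, was called, at 398, 434, 286 and 267 CPM (-0.64, adjusted p = 0.0315, and 0.229 and 0.121 without 30 °C replicate 2 and 4 °C replicate 1). With Top2a cells let in it stood at -0.18 (adjusted p = 0.533). Rora was likewise the only call among 14 type 17 transcription factors and kinases (median 0.06).

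Several gene groups held few calls or none. No gene passed among 13 of T cell receptor signalling and costimulation (2 at an unadjusted p under 0.05), 11 of β-adrenergic and cAMP signalling (2), 13 of glycolysis (2), 11 of lipid uptake and oxidation (3), 7 interferon-stimulated genes (1), 3 of acetylcholine handling (1) and 82 of oxidative phosphorylation (4), all by edgeR. Of 83 cytosolic ribosomal protein genes 77 were negative (median -0.18), but only Rpl39 (-0.36, adjusted p = 0.00625) and Rplp1 (-0.29, adjusted p = 0.0237) were called. Rpl39 kept the call without each library but not with Top2a cells let in (-0.28, adjusted p = 0.129), and Rplp1 lost it without 30 °C replicate 2 (adjusted p = 0.152) and without 4 °C replicate 2 (0.0839). With 20 to 102 cells per library, a difference within these groups may lie below what could be detected.

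Receptor chains were described with the differing detection of V segments in view. Trdc, which chose the cells and is given as a description, stood at 2358, 2204, 1372 and 1826 CPM. Trdv4, in cells chosen without it, stood at 266, 390, 210 and 159 CPM (-0.83, SE 0.203, adjusted p = 0.0424). Over all members, whom Trdv4 could admit, its difference was -0.51 without 30 °C replicate 2. Trbc2, the β constant chain, stood at 911, 975, 1675 and 1157 CPM (0.56, adjusted p = 0.0258, named after its values were seen), with 0.24 (adjusted p = 0.582) without 4 °C replicate 1 and 0.32 (adjusted p = 0.359) in the Tcrg-V6 or Trdv4 cells.

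Some genes of cell division differed even though Top2a was absent from every member. Cenpa, a centromeric histone, stood at 152, 114, 39.5 and 90.7 CPM (-1.41, adjusted p = 0.00863) and lost the call without 4 °C replicate 1 (-0.60, adjusted p = 0.553). Stmn1, a microtubule destabiliser of dividing cells, fell by 1.30 (adjusted p = 0.0251, and 0.23 and 0.0592 without replicate 1 of 30 °C and of 4 °C). Among genes looked up after seeing these, Ccnb2 stood at 46.5, 32.5, 3.16 and 5.67 CPM (-3.38, adjusted p = 0.00425, and 0.193 without 4 °C replicate 1) and Mki67 at 47.9, 39.7, 36.3 and 17.01 CPM (-0.51, adjusted p = 0.552). Ccnb2 rested on 2 and 1 UMIs in the cold libraries. The summed markers of proliferating cells stood at 124, 66.1, 41.0 and 17.01 CPM. Their part in the other differences was not tested, beyond the fit with Top2a cells let in, which called 342 genes.

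**Figure D4:**
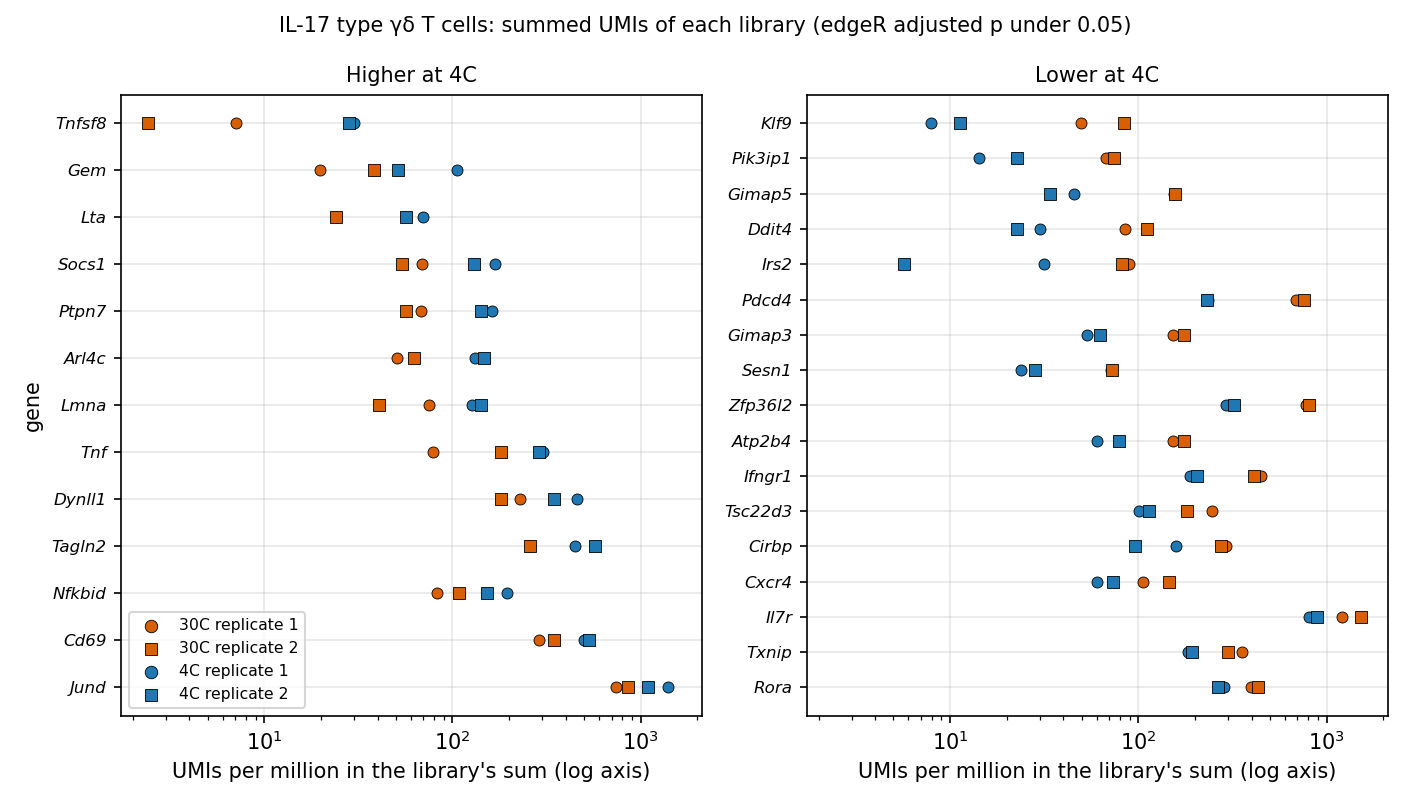
Level of genes past the threshold in each library (circles replicate 1, squares replicate 2; orange 30 °C, blue 4 °C; log axis of CPM). For Pdcd4 and Zfp36l2 the 2 cold libraries lie together far below the thermoneutral ones (235 and 233 against 690 and 758 CPM for Pdcd4).

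The third question was whether the response of IL-17 type γδT cells differed from that of other ChAT-eGFP+ lymphocytes of the same libraries. Against αβT cells, edgeR tested over 9607 genes whether the temperature effect depended on the cell type, in a model that also held a term for each library. It called 54 (0.562%), 27 in each direction. Some named falls were close in size: Ifngr1 stood at -1.21 in the members and -1.27 in αβT cells, Cirbp at -1.08 and -1.01, and Pik3ip1 at -2.19 and -1.89, with none of the 3 differences past the threshold, which does not show that they were equal. Klf9 (-3.00 and -1.71) and Txnip (-0.86 and -1.62) also gave no call for the difference (adjusted p = 0.525 and 0.0564). Nor did Tsc22d3 (-1.09 and -1.75) and Ddit4 (-1.86 and -1.33), with adjusted p of the difference 0.414 and 0.86.

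Of the GIMAP genes, Gimap3 and Gimap5 fell further in the members than in αβT cells. Gimap3, at -1.62, stood at 376, 357, 297 and 328 CPM in αβT cells (-0.29), a difference of -1.31 (SE 0.239, adjusted p = 0.00105). Gimap5 fell by 1.92 against 0.57, a difference of -1.29 (SE 0.265, adjusted p = 0.00342). Both differences lost the call without 30 °C replicate 2, and that of Gimap3 also without 4 °C replicate 1. In members with Tcrg-V6 or Trdv4 and no Tcrg-V4 they came to -0.91 (adjusted p = 0.455) for Gimap3 and -0.68 (adjusted p = 0.888) for Gimap5, and the difference of Gimap6 over all members, -1.08, was not called (adjusted p = 0.0632). Pdcd4, -1.69 against -0.88, differed by -0.80 (adjusted p = 0.00135). Il7r fell less in the members, -0.77 against -1.36 (difference 0.59, adjusted p = 0.00674). Cd69, 0.63 against -0.12, differed by 0.77 (adjusted p = 0.00442), Socs1, 1.31 against 0.31, by 0.96 (adjusted p = 0.0314), Ptpn7, 1.28 against 0.30, by 0.96 (adjusted p = 0.0236), and Tnfsf8, 2.58 against 0.24, by 2.37 (adjusted p = 0.0153). Each of the differences called for Pdcd4, Il7r, Cd69, Socs1, Ptpn7 and Tnfsf8 lost the call without at least 1 library, that of Pdcd4 without 30 °C replicate 2 alone (-0.71, adjusted p = 0.138). Tnf was not called (1.10 against 0.63, adjusted p of the difference 0.596).

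The largest positive differences were of another kind. Trgv2 differed by 2.50 (adjusted p = 0.00135) with a change of 0.23 in the members (adjusted p = 0.678); in αβT cells it rested on 17 and 20 UMIs at 30 °C and 7 and 4 at 4 °C (1.46 and 0.881 CPM in the cold). Blk differed by 1.64 with -0.07 in the members, while in αβT cells it stood at 6.16, 11.8, 1.67 and 4.18 CPM. B cells stood at 0.0342 CPM of Trgv2. The part that γδT cells missed by the rule, or their free RNA, have in the αβT values was not tested.

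**Figure D5:**
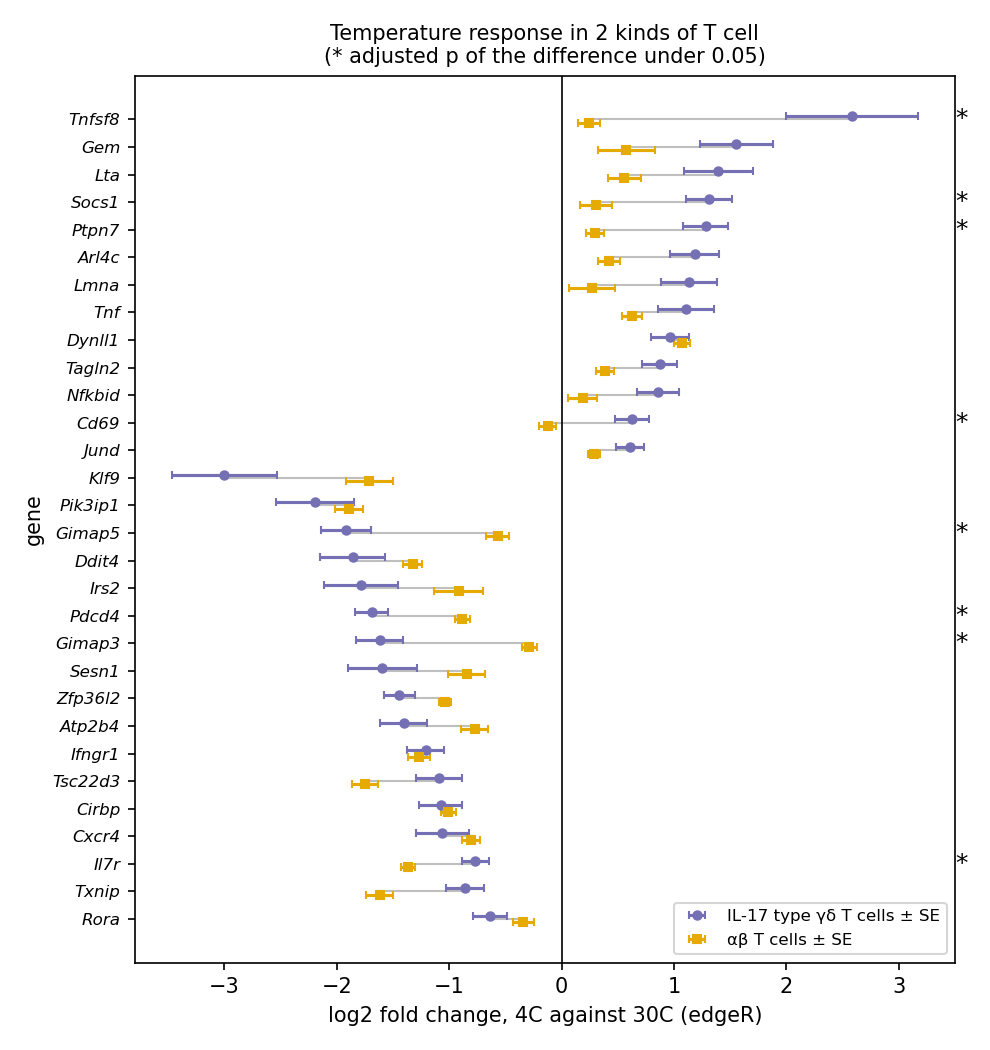
Log2 difference of 4 °C against 30 °C with its SE in IL-17 type γδT cells (circles) and αβT cells (squares); an asterisk marks a called difference between them. Gimap3 lies at -1.62 and -0.29, while Ifngr1 lies at -1.21 and -1.27.

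Against ILC2s, group 2 innate lymphoid cells (117 cells with Gata3 and with Il1rl1 or Il17rb, fewer than 2 Cd3 UMIs, and none of Trac, Trdc or the excluded genes), the same interaction called 0 of 4043 genes (0%; 287 at an unadjusted p under 0.05). Leaving out marked doublets gave 6 calls, and TMM left off gave 2. ILC2s taken with no limit on Cd3 UMIs (292 cells) gave 16. The count of 0 thus belongs to this choice of cells, doublet handling and scaling together. Txnip stood at -0.86 in the members and -1.79 in ILC2s, Klf9 at -3.00 and -2.32, Ddit4 at -1.86 and -2.14, and Ifngr1 at -1.21 and -1.52. Tsc22d3 stood at -1.09 in the members and -1.52 in ILC2s, and Pdcd4 at -1.69 and -1.85. Of the GIMAP genes, Gimap3 fell further in ILC2s (-1.62 in the members and -2.54). Gimap5 (-1.92 and -1.03) and Gimap6 (-1.29 and -1.02) fell less there. The falls of Pdcd4 and of these GIMAP genes were thus not particular to the members.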

How the data were processed

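Per the labels and the study's methods, the libraries were aligned with STAR and counted in Cell Ranger to mm10 (GRCm38); the matrix header gives Cell Ranger 3.0.0 and the submitters' processing notes 3.1.0, beside Seurat 4.2.0. The authors deposited raw UMI counts for 31053 genes in 6883, 6881, 6272 and 6618 barcodes (30 °C replicates 1 and 2, then 4 °C replicates 1 and 2). A droplet's free RNA is counted with its cell, and the reporter sort removes eGFP-negative cells, so shares are of sorted cells. Cells were filtered as stated above, left undivided by clustering, and chosen by UMI rule; Scrublet (expected rate 6%) marked doublets, which were kept in the main result. The members, the gene lists and the tests were chosen with earlier results of these data known.

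Member UMIs were summed per library and tested in edgeR 4.0.16 (R 4.3.3; TMM, filterByExpr, quasi-likelihood test, Benjamini-Hochberg threshold 0.05). DESeq2 1.42.0 was an alternative. Shares were compared by exact permutation over libraries in scipy 1.17.1, and intervals are exact Clopper-Pearson at 95%. Libraries were numbered as in the labels; each pooled 4 mice, and p-values measure the spread between pools. Named genes were those the rule uses and Chat; among called genes of at least 50 CPM with non-overlapping temperatures, the 12 largest rises and falls; called members of the lists, up to 4 per direction, with levels of cytokine, receptor and transcription factor genes; the 15 genes of highest ratio to the remaining cells and 8 to αβT cells; and the 5 largest differences per direction from another cell type. Genes that the rule names but that are missing from the text are not reported here. Other names are said to be chosen after their values were seen. On simulated data for the temperature comparison (5990 genes), 38.4% of log2 changes of 1 and 80.6% of log2 changes of 2 were recovered, and 0.826% of all calls fell on genes simulated without a change.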

Additional observations from a re-analysis of the deposited data

Results flagged for a closer look

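The temperature response of the genes given here differed between IL-17 type γδT cells and αβT cells of the same libraries by the edgeR interaction test, and these are given as values. The differences were 2.50 for Trgv2, 2.13 for Kcnk1, 1.84 for 5830411N06Rik and 1.64 for Blk. Tcrg-C2, at 1.56, is a gene the rule used to choose the members, so its value is a description and not a finding. For each of these 5 the members' own change did not pass the threshold. The differences were -1.31 for Gimap3, -1.29 for Gimap5, -1.27 for Cenpa and -1.26 for Gprin3. For each of these the members' own fall passed it, while of these only Gimap5 passed in αβT cells. Leaving out 1 library cost every one of the 9 its call in at least 1 case. Without 30 °C replicate 2 only Cenpa kept it, and without 4 °C replicate 1 only Trgv2, 5830411N06Rik, Tcrg-C2 and Gimap5 did. In members with Tcrg-V6 or Trdv4 and no Tcrg-V4, only Blk (1.68) and Gprin3 (-1.94) passed.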

How the results depend on the processing

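The difference in share of all kept cells or of cells with Cd3 UMIs kept its direction under every alternative tried. It ran from -0.533 percentage points in members without a Trac UMI to -2.12 of cells with at least 2 Cd3 UMIs. The bases of these points are unlike, and the ratio of the cold to the thermoneutral mean was 0.453 and 0.463 there. When each library was left out the difference ran from -1.40 to -0.461. Against 112 temperature calls, DESeq2 called 33 genes, all 33 among the 112 and in the same direction. It gave an adjusted p for 29 of the 43 named genes, and none for Klf9, Irs2, Ddit4 and Pik3ip1. Genes with at least 1 UMI gave 169, genes with at least 10 UMIs in every library 196, and leaving Il17a and Il23r out of the marker genes 36. Chosen after seeing the data, the Tcrg-V6 or Trdv4 members alone gave 32 calls and letting in cells with Top2a 342. Leaving out 1 library gave 84 to 237 calls, the highest without 4 °C replicate 2. Of the 112 genes, 78 were called without 30 °C replicate 1, 62 without 30 °C replicate 2, 48 without 4 °C replicate 1 and 109 without 4 °C replicate 2. Library sizes alone gave 85 calls, 38 higher and 47 lower, against 37 and 75 with TMM, and moved the median of all genes to 0.05. The calls for the difference from αβT cells numbered 18 to 47 without 1 library and 13 in the Tcrg-V6 or Trdv4 members, against 54. The count of 0 against ILC2s became 2 with library sizes alone, 6 without marked doublets, 16 with no limit on Cd3 UMIs and 8 to 27 without 1 library; the cause was not tested.

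Replicate numbers are shared by the temperatures in the labels, but deviations of same-numbered libraries did not go together (r = -0.092 over 2675 genes), so the numbers were not taken as pairs; the replicate block gave 161 calls. Of the 112 called genes, 108 kept their direction with Top2a cells let in, and 110 of the 111 tested did in the Tcrg-V6 or Trdv4 members. Among the named genes, the reversed ones had no called difference, except Tagln2. With Top2a cells let in, the log2 difference was 0.0016 for Cd3e, 0.067 for Cd3d, 0.079 for Cd3g, 0.47 for Il23r and -0.067 for Tagln2. With no IL-17 type marker required it was 0.00055 for Cd3g and 0.033 for Il23r, and with library sizes alone 0.011 for Cd3g. In members without a Trac UMI it was 0.24 for Cd3g and 0.19 for Il23r, and in the Tcrg-V6 or Trdv4 members -0.15 for Tcrg-C2 and 0.29 for Il23r. Leaving out 1 library gave -0.19 to 0.10 for Cd3g, -0.14 to 0.28 for Cd163l1, -0.29 to 0.044 for Il23r and -0.0057 to 0.33 for Chat. Medians near 0 of the NF-κB, lipid, circadian, glycolysis and transcription factor lists changed sign with scaling or with 1 library left out, and no direction is read from them. The 20 members of 4 °C replicate 2 limit every value of the cold arm.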

Other observations

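Some transcripts outside the comparisons lay in a minority of members. Stmn2 stood at 94.5, 56.5, 36.3 and 244 CPM, highest in the library with 20 members. Areg, known from tissue-resident lymphocytes, had its 52 UMIs in 12 members, and Gzma, a cytotoxic granule enzyme, its 81 UMIs in 3. Klf2, which keeps T cells in circulation, stood at 595, 591, 409 and 459 CPM (-0.53, edgeR adjusted p = 0.0528) and at -1.20 (adjusted p = 0.00221) in members with Tcrg-V6 or Trdv4 and no Tcrg-V4. Plin2, a lipid droplet coat protein, stood at 46.5, 48.1, 18.9 and 17.01 CPM (-1.41, adjusted p = 0.0506). Hspa1a, an inducible heat shock protein, rested on 9, 4, 15 and 12 UMIs (1.96, adjusted p = 0.0974). Serinc3 stood at 683, 727, 324 and 301 CPM (-1.22, adjusted p = 6.58e-05) and Sema4d, a semaphorin of lymphocytes, at 231, 240, 110 and 85.1 CPM (-1.25, adjusted p = 0.00118), both below the thermoneutral libraries in each cold one. All of these genes were chosen after their values were seen. GTAAACA, the letters of a FOXO site, occurred on either strand in the 250 bases before Klf9, Gimap3 and Txnip among 8 genes looked up, and in 3.17% of all 32851 promoters; a full cAMP response element (TGACGTCA) occurred in none of the 8 and in 1.55% of all.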
